A study of Gallus gallus with 20 samples.

Results

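The most abundant transcripts of the chicken ileum are taken here as the genes with a mean of at least 1000 CPM (counts of a gene per 1000000 counts of the bird) over 10 broiler chickens. Of 24356 genes in the table, 58 met this rule, and all 58 were among the 15516 genes tested between the groups. They were chosen by their mean CPM alone, over both groups together, so the levels are a description. The spread between birds, the difference between the groups and the agreement of libraries did not enter the rule directly. A mean near 1000 CPM can still be lifted past the threshold by a few high birds or by the higher group. For such genes the spread and the group difference are not independent of the rule. RNA came from the middle of the ileum, which is the last section of the small intestine, of birds aged 35 days. The Avilamycin group held 5 birds (D2, D3, D4, D5 and D7) and the Control group 5 birds (A3, A4, A5, A6 and A7), and each bird gave 2 technical libraries. Avilamycin is an oligosaccharide antibiotic against Gram-positive bacteria used in poultry feed to promote growth, and the comparison asks how it bears on the transcripts of the host's gut. The sources used here name no strain, sex, dose or length of treatment.

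In total RNA cleared of ribosomal RNA, a handful of products usually take a large part of the reads. Transcripts of the mitochondrial genome, small structural RNAs that serve protein export or transcription, and mRNAs for the translation machinery and the cytoskeleton are common among them. In the small intestine, absorptive cells add lipid carriers and brush border enzymes, muscle layers add contractile proteins, and resident plasma cells add immunoglobulin chains. The files give Ensembl gene IDs without symbols, and 0 of the 58 could be matched to a symbol in the reference gene table used here. No role is therefore attached to any ID, and markers of the ileum or of its cell types could not be checked. Reads, not molecules, are counted, and gene lengths were not used, so the order below is an order of read counts.

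The 58 genes held about the same part of the counts in every bird. Their summed share was 33.7%, 33.5%, 33.02%, 33.4% and 33.9% in Avilamycin birds D2, D3, D4, D5 and D7, against 33.01%, 32.2%, 34.6%, 34.1% and 33.8% in Control birds A3, A4, A5, A6 and A7. The group means were 33.5% ± 0.336 in Avilamycin birds and 33.6% ± 0.971 in Control birds (SD, n = 5 each), and the ranges overlapped. The part below the first 3 genes was 11.9% ± 0.604 in Avilamycin birds and 11.03% ± 0.375 in Control birds, and the first 3 genes together took 21.6% ± 0.695 in Avilamycin birds and 22.5% ± 1.09 in Control birds (SD, n = 5 each). For both parts the ranges of the groups overlapped, and no test was made on a sum over chosen genes. Because CPM are shares of 1 total, a higher share of one gene lowers the others. The number of genes needed to reach 50% of the counts was between 422 and 456 in Avilamycin birds and between 411 and 498 in Control birds, and the number at or above 1000 CPM in a single bird was between 55 and 65 in Avilamycin birds and between 49 and 62 in Control birds.

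The first 3 genes stood far above the rest, in the same order in all 10 birds. Values by bird are listed here and below in the order D2, D3, D4, D5, D7 for Avilamycin and A3, A4, A5, A6, A7 for Control. ENSGALG00000043598 had 153345, 137205, 124864, 130468 and 140527 CPM in Avilamycin birds, against 141138, 132558, 142503, 151465 and 148833 CPM in Control birds. Its highest and lowest bird differed by 1.23-fold, and both belonged to the Avilamycin group. ENSGALG00000036956 followed with 53756, 55442, 63188, 68015 and 53421 CPM in Avilamycin birds, against 61699.9, 56175, 76317, 63035 and 59534 CPM in Control birds. Control bird A5 was the highest for this gene and Avilamycin birds D7 and D2 were the lowest. ENSGALG00000017926 had 20131, 18589, 21559, 17780.4 and 19981 CPM in Avilamycin birds, against 18947, 21667, 17795, 20989 and 13756 CPM in Control birds, and Control bird A7 lay below the other 9. The mean of the first gene was 2.30 times that of the second, the second 3.19 times the third and the third 2.83 times the gene of rank 4. Group differences were small for all 3, with log2 fold changes (Avilamycin over Control) of -0.05, -0.10 and 0.09 and adjusted p of 0.923, 0.838 and 0.854 in edgeR's quasi-likelihood test. The last of these directions turned when Control bird A7 was left out (log2 fold change -0.0021).

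**Figure D1:**
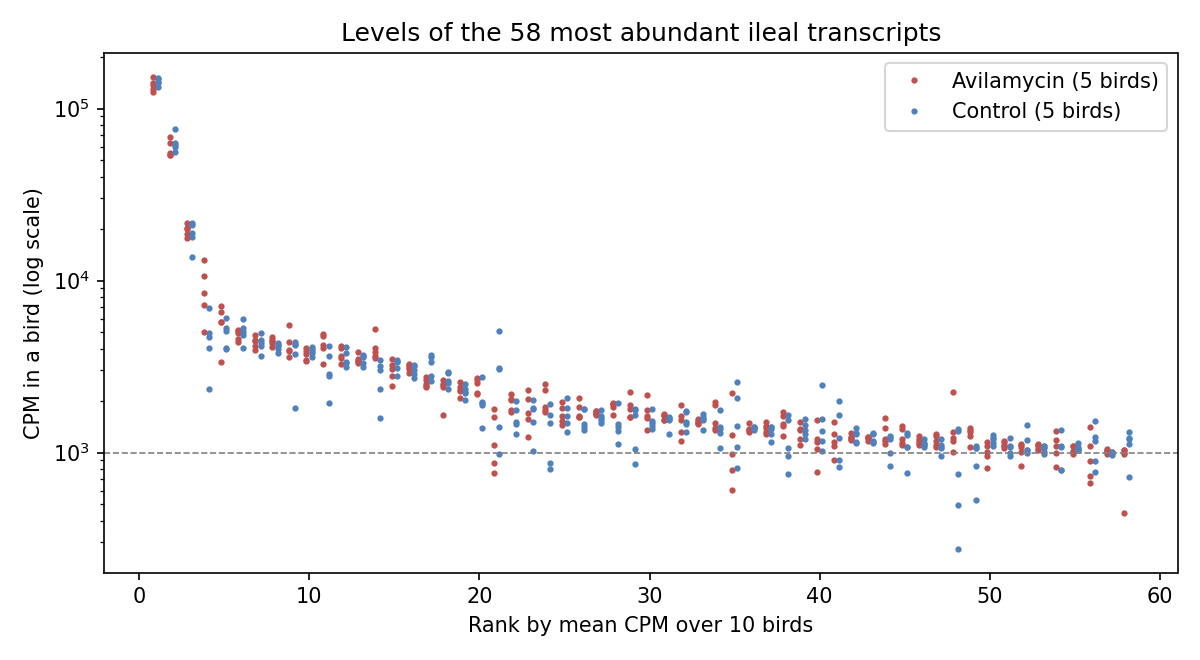
CPM of each of the 58 genes in each bird (log scale) against the rank of the gene by mean CPM, with Avilamycin birds drawn left of Control birds and the dashed line at 1000 CPM. The first 3 genes are separate from all others in every bird, whereas from rank 4 on the birds of neighbouring genes overlap.

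From rank 4 on, the order changed between birds. ENSGALG00000001445 had rank 4 by its mean, but ranks from 4 to 19 in single birds. It had 4993, 10639, 7247, 8411 and 13150.4 CPM in Avilamycin birds, against 4974, 4061, 6965, 2353 and 4702 CPM in Control birds. ENSGALG00000031341 had 3372, 7123, 6531, 5718 and 5718 CPM in Avilamycin birds, against 3977, 6086, 4050.1, 5119 and 5283 CPM in Control birds, with Avilamycin bird D2 the lowest and D3 the highest of all birds. The gene of rank 4 was above that of rank 5 in 7 of 10 birds, namely all Avilamycin birds and Control birds A3 and A5. The gene of rank 5 was above that of rank 6 in 6 of 10 birds. Differences between neighbouring genes were not tested.

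The next 5 genes lay within a narrow band of means. ENSGALG00000032142 had 5171, 4931, 4399.5, 4559.7 and 5061 CPM in Avilamycin birds, against 4029, 5278, 4837, 5037 and 5982 CPM in Control birds. ENSGALG00000035584 had 4164, 4502, 4808, 4471 and 3929 CPM in Avilamycin birds, against 4933, 4342, 3664, 4499 and 4147 CPM in Control birds. ENSGALG00000035334 had 4698, 4343, 4501, 4125 and 4422 CPM in Avilamycin birds, against 3788, 4223, 4309, 4012 and 4138 CPM in Control birds, and in both groups its SD was under 5% of the mean (4.76% in Avilamycin and 4.97% in Control birds). The ranges of the groups overlapped for each of these 3 genes, and for the third Control birds A3 and A6 lay below all Avilamycin birds. ENSGALG00000035914 had 3883, 3947, 5487, 4419 and 3608 CPM in Avilamycin birds, against 4283, 1817, 4228, 3719 and 4405 CPM in Control birds. Control bird A4 lay far below the other 9 birds. ENSGALG00000028749 had 3435, 4048, 3745, 3905 and 3420.0 CPM in Avilamycin birds, against 4088, 3592, 3809.7, 3975 and 3888 CPM in Control birds, and its highest bird was 1.195-fold above its lowest. Neighbours among the genes of rank 6 to 11 kept their order in only 5 to 8 of 10 birds, and 5 genes were among the 10 most abundant in every bird.

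Below rank 10 the levels declined slowly towards the threshold. In all, 3 genes were above 10000 CPM, 17 between 2000 and 10000 CPM, 14 between 1500 and 2000 CPM and 24 between 1000 and 1500 CPM. Of the 58 genes, 37 were at or above 1000 CPM in every bird, and 27 other genes reached 1000 CPM in at least 1 bird. Just inside the threshold were ENSGALG00000005823, with a mean of 1008 CPM, and ENSGALG00000049450, with 1006 CPM. Just outside it were ENSGALG00000011806, with 998 CPM and a range over birds from 642 to 1609.9 CPM, and ENSGALG00000003285, with 993 CPM and a range from 619.7 to 1199 CPM. The lowest count of a member in a bird was 12009, which corresponds to a counting error of 0.913% of the value, which is small beside most of the differences described here.

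High abundance did not mean an even level between birds. The SD of log2 CPM among the 5 birds of a group, averaged over both groups, had a median of 0.19 over the 58 genes and ran from 0.028 to 0.75. Genes of 100 to 1000 CPM had a median of 0.12 and all genes tested one of 0.21. The difference between the 58 genes and the others was not tested. By group, the median over the 58 was 0.16 in Avilamycin birds and 0.20 in Control birds, and the SD was larger in Control birds for 42 of 58 genes (72.4%), against 49.9% of all genes tested. It was larger in Avilamycin birds for 16 of the 58 genes and for 792 of the 1686 genes of 100 to 1000 CPM. For 17 of the 58 genes the highest bird was more than 2-fold above the lowest. The same held for 193 of 1686 genes of 100 to 1000 CPM and for 5155 of the 15516 genes tested. Spread and range over all genes tested include more counting error than those of the 58. From counting alone, the median SD of the log2 library ratio was 0.115 for all genes tested. It was 0.036 for genes of 100 to 1000 CPM and 0.012 for the 58 genes.

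The steadiest and the most variable genes differed widely in their ranges. ENSGALG00000005823 had 1019, 984, 1045, 1016 and 1034 CPM in Avilamycin birds, against 1006, 995, 998, 970.0 and 1010.0 CPM in Control birds, so that all 10 birds lay within 1.08-fold. ENSGALG00000011330 had 1479, 1357, 1367, 1317 and 1356 CPM in Avilamycin birds, against 1382, 1383, 1349, 1406 and 1409.7 CPM in Control birds, within 1.12-fold. At the other end, ENSGALG00000049414 had 1014, 1222, 1311, 1170.4 and 2260.1 CPM in Avilamycin birds, against 494, 1375, 752, 275 and 1341 CPM in Control birds. Its highest bird, Avilamycin D7, was 8.22-fold above its lowest, Control A6, and the groups overlapped. ENSGALG00000006322 had 756, 1793, 865, 1599 and 1101 CPM in Avilamycin birds, against 3097, 983, 1403, 5113 and 3079.6 CPM in Control birds. Here Control A6 was the highest and Avilamycin D2 the lowest bird, 6.77-fold apart. The coefficient of variation was 35.5% in Avilamycin and 58.5% in Control birds for ENSGALG00000049414, and 37.2% in Avilamycin and 59.9% in Control birds for ENSGALG00000006322. With a mean of 1395 ± 495 CPM in Avilamycin birds and 847 ± 496 CPM in Control birds (SD, n = 5 each), ENSGALG00000049414 had an adjusted p of 0.52 between the groups (edgeR's quasi-likelihood test).

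One Control bird was often at the end of the range. Control A6 was the lowest of 10 birds for 19 of 58 genes (32.8%). It was also the bird most often lowest over all genes tested, with 14.9% of them. Avilamycin D3 was the lowest for 0 of 58 genes, against 11.7% of all genes tested. Control birds A3 and A6 together were the lowest pair for 11 of the 58 genes, against 4.23% of all genes tested. The highest bird was Avilamycin D7 for 10 genes and Control A7 for 10 genes (17.2% each), against 9.71% and 7.88% of all genes tested. These counts compare shares of genes within the same birds and carry no test.

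**Figure D2:**
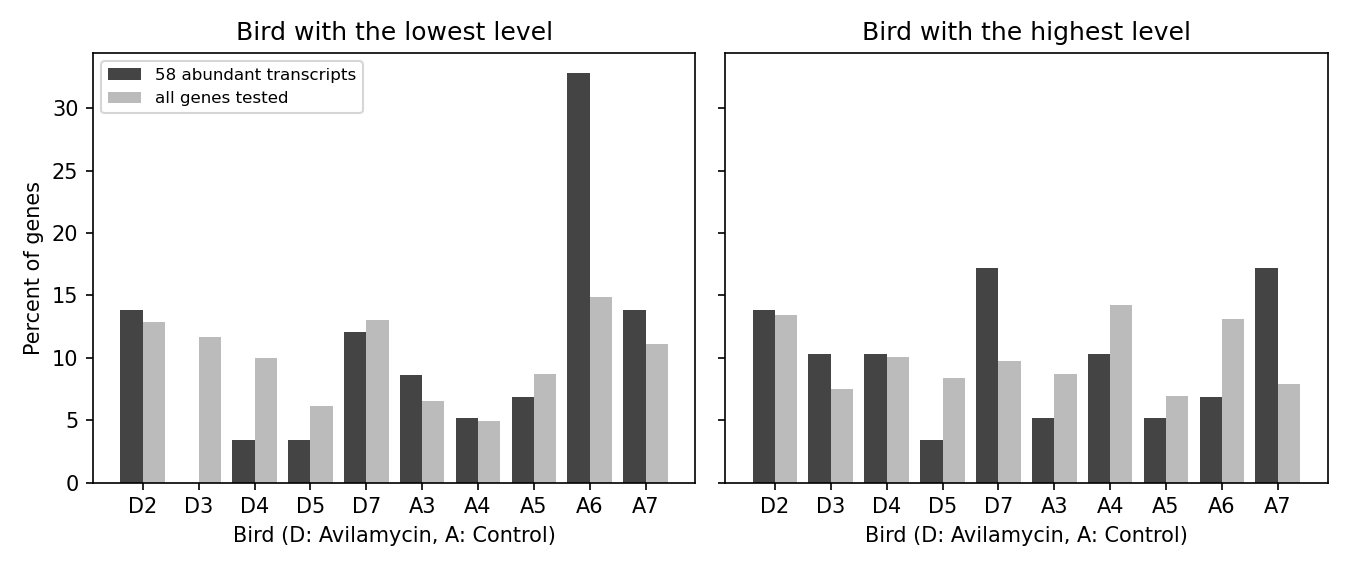
Percent of genes for which each bird had the lowest (left) or the highest (right) CPM of the 10 birds, for the 58 abundant genes (dark bars) and all 15516 genes tested (light bars). Control A6 is the lowest bird for 32.8% of the abundant genes and 14.9% of all genes tested.

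No abundant gene differed between Avilamycin and Control birds past the threshold. In edgeR's quasi-likelihood test on bird sums, 0 of 58 had an adjusted p under 0.05, and 0 of the 15516 genes tested had one (0%). The lowest adjusted p among the 58 was 0.318. At an unadjusted p under 0.05 there were 10 of the 58 genes, against 11.1% of all genes tested, which makes 17.2% of the 58. Of these 10, 7 had higher values in Avilamycin birds (5.34% of all genes tested) and 3 had lower values (5.76% of all genes tested), with absolute log2 fold changes between 0.22 and 1.16. The median log2 fold change over the 58 genes was 0.06, and over all genes tested it was -0.00034. For 37 of the 58 genes (63.8%) the fold change was positive, against 49.9% of all genes tested, and for 31 it was smaller than 1.1-fold either way. Genes of 100 to 1000 CPM lay between, with a positive fold change for 53.9%. Of these 1686 genes, 13.8% had an unadjusted p under 0.05 in the same edgeR test, 142 higher and 90 lower in Avilamycin birds. The 37 positive members include ENSGALG00000049414, which reached 1000 CPM in its Avilamycin mean but not in its Control mean. DESeq2 also gave 0 of the 58 an adjusted p under 0.05, with 1.21% of the genes with an adjusted p called. It gave 11 of the 58 an unadjusted p under 0.05, beside 9.71% of all genes in that fit. Limma voom gave 0 of 58 past the threshold and 11 at an unadjusted p under 0.05, beside 11.3% of all genes tested.

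The count at an unadjusted p under 0.05 depended on Control bird A6. Without it, 5 of the 58 genes had such a p, 4 higher and 1 lower in Avilamycin birds, beside 7.59% of all genes tested. For 6 of the 7 genes with higher values in Avilamycin birds, Control A6 was the lowest of the 10 birds. Without Control A5 the count was 14, with 11 higher and 3 lower in Avilamycin birds, beside 13% of all genes tested. A block of 19 genes that were on in some birds and off in others, with 0 of the 58 among them, was on in 1 of 5 Avilamycin birds and 3 of 5 Control birds. With the level of this block as a covariate, 8 of the 58 genes had higher and 1 had lower values in Avilamycin birds at an unadjusted p under 0.05, beside 9.31% of all genes tested. The part of this block in the group differences was not tested further.

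**Figure D3:**
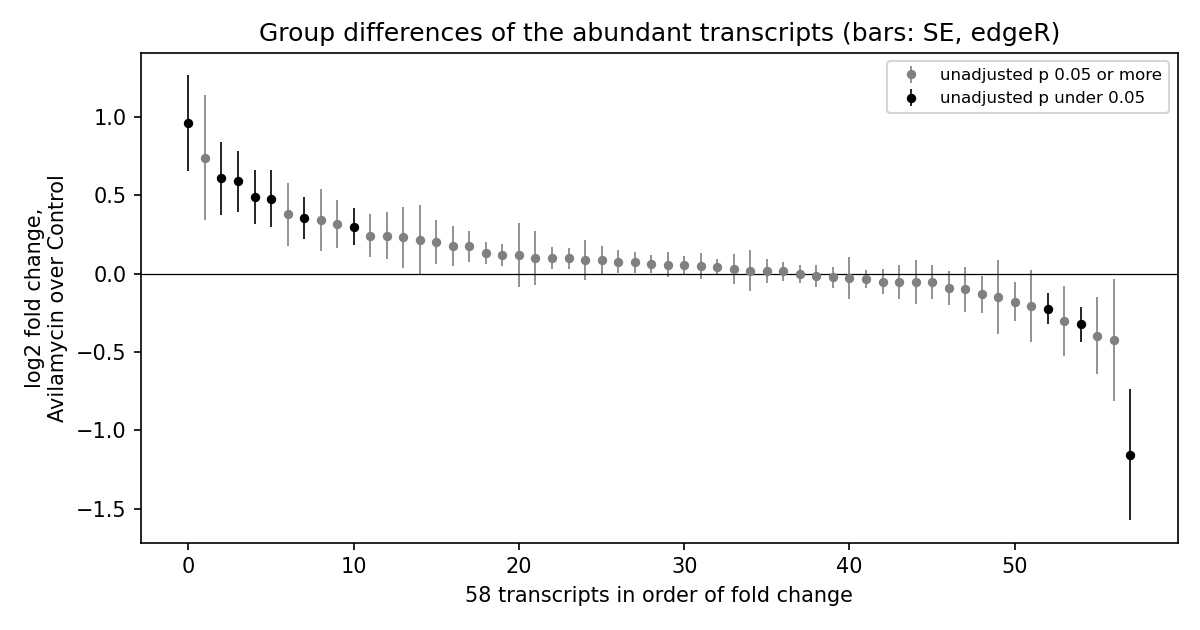
log2 fold change (Avilamycin over Control) of each of the 58 genes with its SE from edgeR, in order of size, with black points for an unadjusted p under 0.05. The values run from 0.96 to -1.16, and 37 of the 58 are positive.

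The pairs of genes with the smallest p in each direction differed in how the birds were placed. ENSGALG00000001445, whose values by bird are given above, averaged 8888 ± 3136 CPM in Avilamycin birds and 4611 ± 1665 CPM in Control birds (SD, n = 5 each). For this gene Avilamycin D7 was the highest bird and Control A6 the lowest, while Avilamycin D2 lay among the Control birds. The groups differed by a log2 fold change of 0.96 ± 0.30 (SE), with an adjusted p of 0.318 in edgeR's quasi-likelihood test, and 0.032 to 0.553 over the alternatives. The lowest value came from limma voom on the 20 libraries, described below. ENSGALG00000016491 had 3845, 3623, 4036, 3551 and 5203 CPM in Avilamycin birds, against 2343, 3463, 3010.1, 1587 and 3193 CPM in Control birds. It was the one member whose groups did not overlap, with the lowest Avilamycin bird, D5, just above the highest Control bird, A4. No overlap in this direction was seen for 0.864% of all genes tested. Its log2 fold change was 0.59 ± 0.19 (SE), with an adjusted p of 0.326 in edgeR's quasi-likelihood test, and 0.0256 to 0.542 over the alternatives. Here too the lowest value came from limma voom on the 20 libraries.

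The pair with lower values in Avilamycin birds overlapped with the Control birds. ENSGALG00000008940 had 2507, 2764, 2633, 2445 and 2412 CPM in Avilamycin birds, against 3377, 2779.8, 2615, 3584 and 3706 CPM in Control birds. Control birds A3, A6 and A7 were well above all Avilamycin birds, A4 was just above the highest of them, D3, and A5 lay among them. The log2 fold change was -0.32 ± 0.11 (SE), with an adjusted p of 0.34 in edgeR's quasi-likelihood test, and 0.037 to 0.613 over the alternatives. Again the lowest value came from limma voom on the 20 libraries. ENSGALG00000006322, given above as a variable gene, averaged 1223 ± 455 CPM in Avilamycin birds and 2735 ± 1639 CPM in Control birds (SD, n = 5 each). The difference on the log2 scale was -1.16 ± 0.42 (SE), with an adjusted p of 0.359 in edgeR's quasi-likelihood test, and without Control A6 it was -0.80 with an adjusted p of 0.66 in the same test. In the 8 birds with shared numbers, which leave out Avilamycin D2 and Control A6, it was -0.66, and -0.54 with the bird number as a replicate block. Over the alternatives its adjusted p ran from 0.0908 to 0.66 and its log2 fold change from -1.37 to -0.54. Groups with all Avilamycin birds below all Control birds were found for 0 of the 58 genes and 0.922% of all genes tested.

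**Figure D4:**
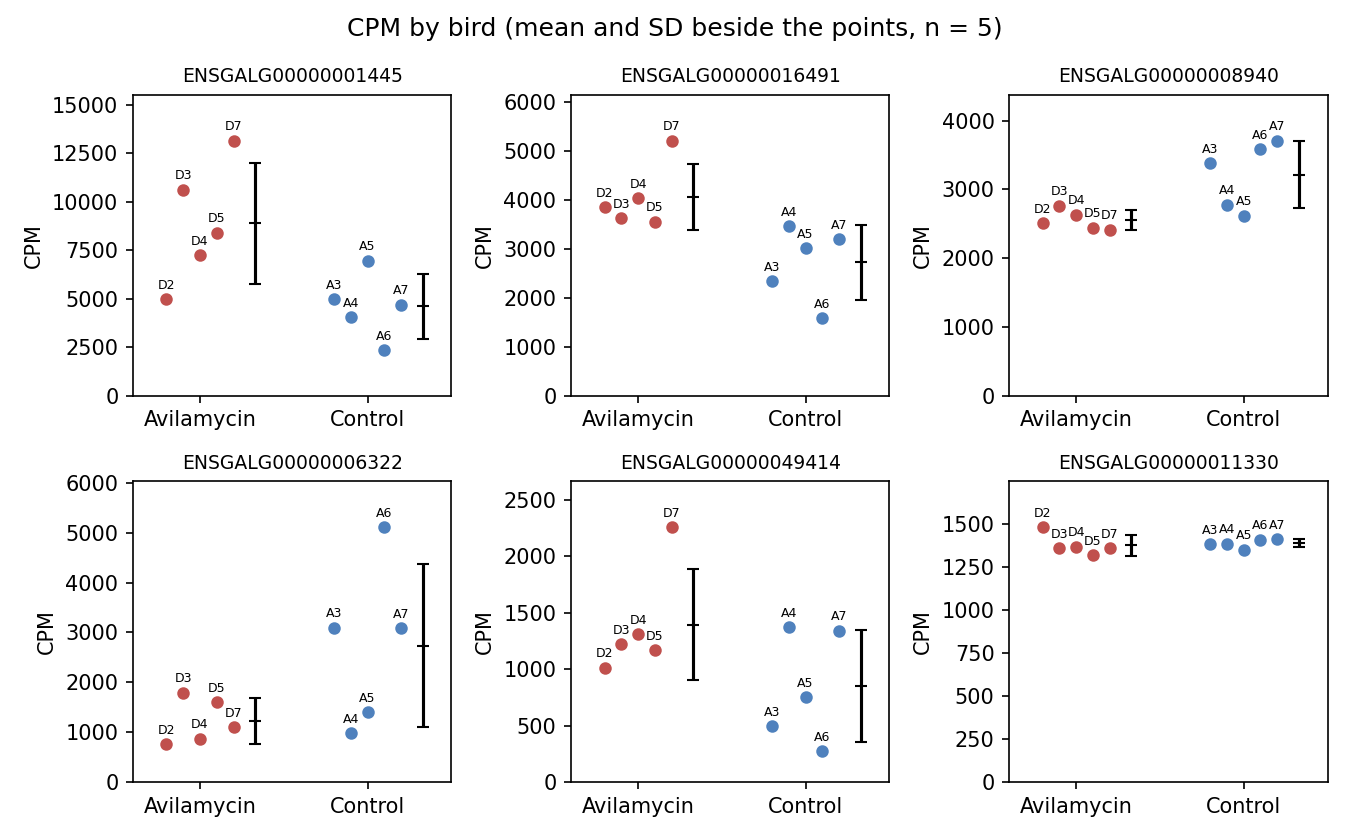
CPM of 6 abundant genes in each bird, Avilamycin birds left and Control birds right, with the mean and SD (n = 5) as a bar beside each group. ENSGALG00000016491 has no overlap between the groups, ENSGALG00000006322 and ENSGALG00000049414 vary most between birds, and ENSGALG00000011330 is nearly level.

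A fit that treats the technical libraries separately gave a different count. Limma voom was run on all 20 libraries, with technical replicates blocked by a random effect for the bird. It called 5 of the 58 genes at an adjusted p under 0.05, against 1.57% of all genes tested. They were ENSGALG00000016491 (log2 fold change 0.61, adjusted p = 0.0256), ENSGALG00000001445 (0.95, adjusted p = 0.032) and ENSGALG00000008940 (-0.32, adjusted p = 0.037), with ENSGALG00000009511 (0.66, adjusted p = 0.0447) and ENSGALG00000027269 (0.50, adjusted p = 0.0489), all from limma. The last 2 were named after their values were seen, and both had an adjusted p of 0.38 in edgeR's quasi-likelihood test on bird sums. This fit applied 1 shared correlation of 0.635 within birds to every gene, and the share of variance taken by birds had a median of 88.9% over the 58 genes. For these 5 genes the share was between 92.6% and 99.3%. The fit thus counted their 2 libraries as more independent than they were, so its p for them are likely too small.

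At the median, the 2 libraries of a bird agreed on the abundant genes to within a few percent. For 11 of the 58 genes, however, the ratio was over 1.2-fold in some bird, and the largest ratio was 1.46-fold. The absolute log2 ratio of the libraries, as the median over birds for each gene, had a median of 0.061 over the 58 genes, or 1.04-fold. The median was 0.054 for genes of 100 to 1000 CPM and 0.13 for all genes tested, for which the median SD from counting was 0.115. These ratios were nevertheless mostly larger than counting error, for which the median SD over the 58 genes was 0.012. In 437 of 580 pairs of gene and bird (75.3%) the ratio was more than 2 SD of counting error from equality. The variance of log2 CPM within groups was split into birds and libraries, where a shift shared by all second libraries counted as library variance. In this split birds took a median of 88.9% over the 58 genes. The median was 82.6% over genes of 100 to 1000 CPM and 59.7% over all genes tested. The spread between birds exceeded that between libraries for 53 of 58 genes (91.4%). This share was 86.0% for genes of 100 to 1000 CPM and 59.8% for all genes tested. In log2 CPM of these 58 genes alone, the closest match of each of the 20 libraries was its partner from that bird, with correlations across genes of 0.995 to 0.999, where genes are not independent replicates. The best match from another bird was also high, with correlations of 0.961 to 0.991.

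Library differences went the same way in many birds. In Avilamycin birds D2, D3 and D7 and Control birds A4 and A7, the second library was above the first for only 17 of 58 genes, and in Control A6 and A3 for 18 and 19. In Avilamycin birds D4 and D5 it was above for 24 and 31 genes, and in Control A5 for 41. Median absolute ratios ran from 0.024 in Avilamycin D4 to 0.094 in Control A4 on the log2 scale. By gene, the second library was the lower one in at least 8 of 10 birds for 21 genes and the higher one in at least 8 birds for 5 genes. The 2 most abundant genes were among these 5. ENSGALG00000043598 was higher in the second library of 8 birds and ENSGALG00000036956 in that of 9, with largest ratios of 1.11-fold in Control A3 and 1.23-fold in Avilamycin D7. Because CPM are shares of 1 total, higher shares of these 2 genes lower those of the others. How far this bears on the 21 genes lower in the second library was not tested. The same counts over all genes tested are not given here, so they are not a trait shown to be particular to the 58. The study's design text assigns sequencing runs by sample numbers that no label carries. A library could therefore not be tied to a run, and the part of the run in these library differences was not tested.

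**Figure D5:**
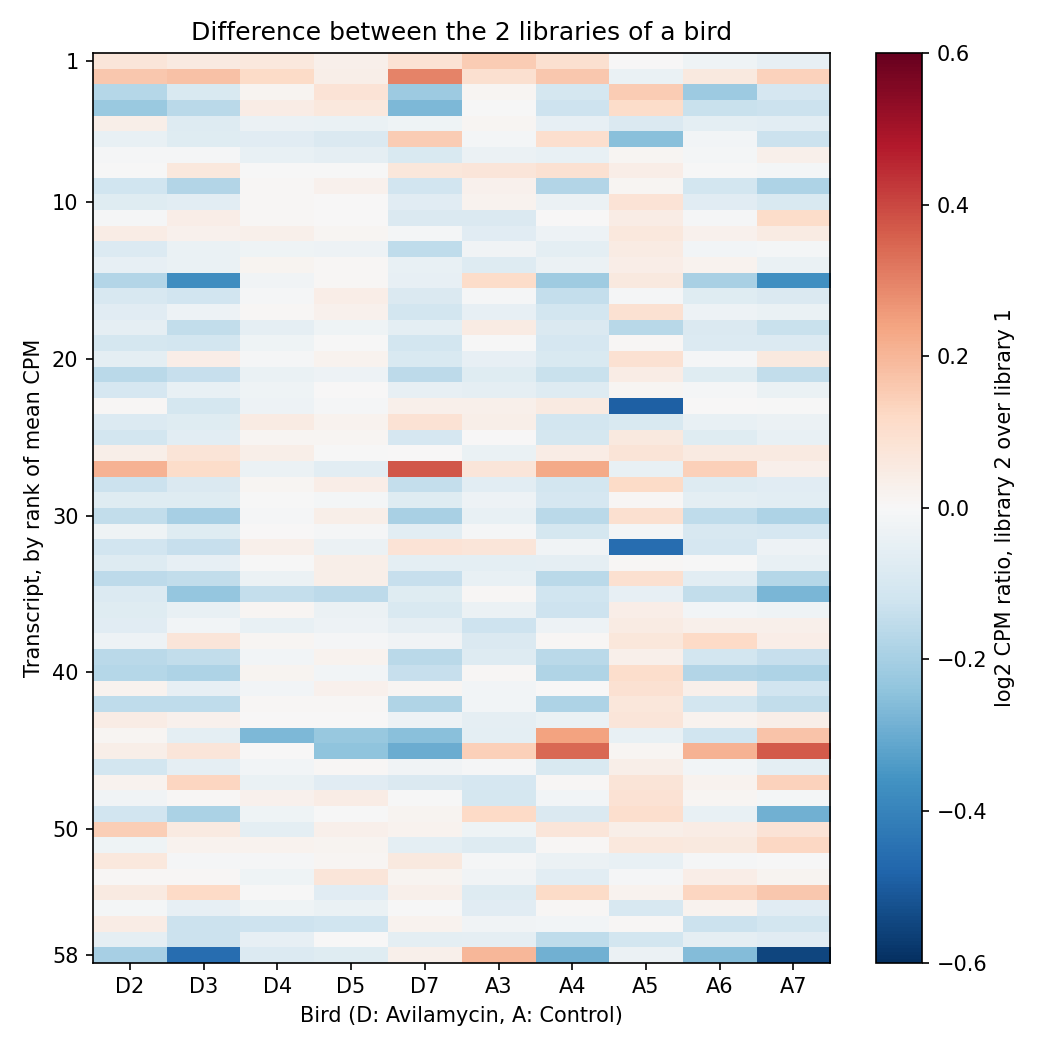
log2 ratio of CPM in the second over the first library for the 58 genes (rows, by rank of mean CPM) in each bird (columns, Avilamycin left of Control), with red for a higher second library and blue for a lower one. Columns D4 and D5 are palest, and the strongest colours belong to single genes such as ENSGALG00000049450 at rank 58.

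The 2 genes with the largest median library differences lay at the upper end of a graded range. Below them, ENSGALG00000000919 had a median ratio of 0.154 and ENSGALG00000004509 one of 0.150 on the log2 scale, both named after the values were seen. ENSGALG00000049450 had the largest median ratio, 0.20 on the log2 scale. Its first and second libraries gave 1174 and 855.5 CPM in Avilamycin D3 and 1301 and 888.6 CPM in Control A7, whereas Avilamycin D7 had 441.3 and 450.2 CPM. By bird, it had 993, 1036, 1032, 982 and 445 CPM in Avilamycin birds, against 1196, 1323, 721, 1212 and 1119 CPM in Control birds, and Avilamycin D7 was the lowest in both of its libraries. ENSGALG00000025958 had a median ratio of 0.17, and its second library was the higher one in 8 birds and the lower one in Avilamycin D5 and D7. The second library was higher by 1.29-fold in Control A7 and by 1.27-fold in Control A4, and lower by 1.23-fold in Avilamycin D7 and by 1.183-fold in Avilamycin D5. ENSGALG00000025650, noticed after the values were seen, had levels within 1.16-fold of those of ENSGALG00000025958 in every bird, with 1195, 1173, 1394, 1119 and 1597 CPM in Avilamycin birds and 1202, 992, 1255, 1229 and 836 CPM in Control birds, against 1196, 1138, 1376, 1107 and 1429 CPM in Avilamycin and 1258, 1073, 1084, 1299 and 759.6 CPM in Control birds for ENSGALG00000025958. Whether the 2 genes share reads was not tested. Closest agreement was found for ENSGALG00000015233 and ENSGALG00000012790, with median ratios of 0.011 and 0.020 and largest ratios of 1.05-fold for each. For ENSGALG00000005823 the split gave birds no more variance than libraries, and its bird share, which is cut off at 0%, was 0%. Its second library was the lower one in every bird except Avilamycin D5. This shared shift counted as library variance, so the 0% does not show that the birds were equal. Control A5 held 2 further large ratios, seen after the values were known, with a second library lower by 0.49 on the log2 scale for ENSGALG00000049199 and by 0.46 for ENSGALG00000009621.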

How the data were processed

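Total RNA from mid-ileum was kept in RNAlater, disrupted by beads, purified on columns and made into strand-specific libraries after ribosomal RNA depletion, per the labels' protocols. Raw counts of reads for 24356 gene IDs in 20 libraries were deposited by the authors. The submitters' processing notes list STAR, HTSeq 0.6.1, DESeq2, SAMtools 1.7 and Trimmomatic 0.36, and the build galGal5, with no role or order, whereas the deposited count table is named for GRCg6a, so no coordinates are given. The sources used here do not say whether counting used the strand, so genes that overlap or have near-identical copies are uncertain. Another deposited file held the same bytes as the table and was left out. The reference gene table lists 25635 genes, and 0 IDs matched it, so no symbols, sequences or gene lists could be used.

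Counts of the 2 libraries of a bird were summed, since the bird is the replicate, and CPM used bird totals. A library held 14079936 to 26708365 counts, and a bird 31130907 to 45371754. The groups were tested with edgeR 4.0.16 in R 4.3.3, by its quasi-likelihood method, after filterByExpr and TMM scaling, over all 15516 genes, calling adjusted p (Benjamini-Hochberg) under 0.05. SEs were derived from the F statistic. DESeq2 1.42.0, limma 3.58.1 voom, other scalings and filters, single libraries and the omission of each bird were alternatives. Only the main edgeR fit was checked on simulated counts. The groups share bird numbers 3, 4, 5 and 7, whose deviations from the group means had correlations of only -0.019 to 0.11, so birds were not paired. Named genes are the 10 most abundant, the 2 at each end by p, by spread between birds and by library difference, and the 2 on each side of 1000 CPM. The members, lists and tests were chosen with earlier results of these data known. Intervals from counts cover counting error only.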

Additional observations from a re-analysis of the deposited data

Results flagged for a closer look

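The levels of 20 named genes and 5 summary measures were checked in each group of 5 birds, and the library ratios of the 20 genes over 10 birds, 70 sets in all. A value was taken as standing apart where its gap to the nearest other bird was above Dixon's critical value. This was 0.71 of the range for 5 birds and 0.466 for 10 birds. Chance gives this for about 1 in 20 independent sets, and 3 of the 70 sets held such a value. The sets share birds, and some genes were named for their spread or library difference in these same data. ENSGALG00000049414 and ENSGALG00000049450 below are among the latter. The rate of 1 in 20 is therefore no measure of how unusual these values are. Avilamycin bird D7 had 445 CPM of ENSGALG00000049450, below the next lowest Avilamycin bird at 982 CPM, a gap of 0.907 of the range. The same bird had 2260.1 CPM of ENSGALG00000049414, above the next highest Avilamycin bird at 1311 CPM, a gap of 0.761 of the range. That value also entered the mean by which the gene met the rule of 1000 CPM. Control bird A4 had 1817 CPM of ENSGALG00000035914, below the next lowest Control bird at 3719 CPM, a gap of 0.735 of the range.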

How the results depend on the processing

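The fits with the block of 19 genes as covariate and of 8 birds unblocked were chosen after seeing the data. In 24 alternatives, 480 fold changes of the 20 named genes were recomputed. Of these, 3 came to pass the threshold, 11 turned, and the others kept their direction and side of the threshold. Those that turned were near 0. The log2 fold change of ENSGALG00000011330 ran from -0.021 to 0.016 without 1 bird and was 0.0058 with the covariate, that of ENSGALG00000035584 ran from -0.017 to 0.0798, that of ENSGALG00000017926 from -0.0021 to 0.13, and that of ENSGALG00000032142 from -0.12 to 0.024, with 0.037 under the covariate. The 0 called members changed only under limma voom with technical libraries in a replicate block, to 5, which also gave 21 members at an unadjusted p under 0.05, beside 14.6% of all genes, and 243 called genes. Called genes otherwise numbered 0 to 3 without 1 bird, 2 with technical library 2 alone, 1 with the covariate and 195 in DESeq2. With 1 bird left out, members at an unadjusted p under 0.05 lay between 5 (Control A6) and 14 (Control A5). With the bird number as a replicate block they were 7, beside 8.69% of all genes, and also 7 in the same 8 birds unblocked, beside 9.77%, all higher in Avilamycin birds. The rule would give 156 members at 500 CPM, 20 at 2000 CPM and 37 if every bird had to reach 1000 CPM. Their shares were then 40.1% and 28.3% in Avilamycin birds and 40.2% and 28.5% in Control birds at 500 and 2000 CPM. Without the most abundant gene the share was 22.9% in Avilamycin birds and 22.4% in Control birds, and single technical libraries gave 33.2% and 33.9% in Avilamycin birds. Without 1 bird the share ran from 33.4% to 33.6% in Avilamycin and from 33.3% to 33.9% in Control birds. The median spread between birds was 12.8% as a coefficient of variation, and without 1 bird it ran from 0.16 to 0.20 in log2 CPM. Causes were not tested. Counting error, at most 0.913% of a value in a bird, limits these genes little.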
